A study of Mus musculus with 2 samples.

Results

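The dentate gyrus makes new granule neurons from neuronal progenitors, and its cells change their calcium-handling proteins on the way. The 9 genes described here are calcium-binding genes (Calb1, Calb2, Hpca, Ncald, Calm2, Calm3) and genes of calcium/calmodulin-dependent protein kinase II, called CaMKII (Camk2a, Camk2b, Camk2n1), out of 15474 genes counted. They were chosen on measured values, as genes of these families whose counts differed along the granule lineage or between the conditions, with a switch from Calb2 to Calb1 as the leading pattern. The differences that chose them are therefore given as a description, with no test.

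Cells were dissociated from the dentate gyrus of C57BL/6J mice, labelled as 4 to 5 weeks old, and profiled with SORT-seq, in which single cells are sorted into wells of a 384-well plate and the 3′ end of each transcript is counted with a unique molecular identifier (UMI). The fresh library came from a pool of 3 mice whose cells were sorted right after dissociation, with a stain against dead cells. The methanol (MeOH)-fixed library came from a pool of 4 mice whose cells were fixed in cold MeOH, stored for 3 weeks, rehydrated and sorted without that stain. Each condition was thus 1 plate from 1 pool, so that plate, mice, staining, storage and fixation cannot be told apart, no test was possible, and every interval below is a 95% interval for counting error only. The filtered cells were 64 fresh and 132 MeOH-fixed ones in 8 deposited identities, with 534122 and 729018 UMIs. The doublets were gated out in the sort, and no doublet caller was run. Of the well barcodes, 24 held a filtered cell on both plates, which were sorted separately.

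Calcium enters a neuron with activity and is bound by proteins that carry EF-hand loops. Some of these act mainly as buffers, such as calbindin (Calb1), a classic marker of mature granule neurons, and calretinin (Calb2), a marker of young granule neurons shortly after their last division. Others change shape on binding and pass the signal on, such as calmodulin, which activates CaMKII, the abundant kinase of excitatory synapses.

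The granule lineage made up 23 fresh cells of 64 and 65 MeOH-fixed cells of 132. Neuronal intermediate progenitors (nIPCs) and neuroblasts numbered 16 and 21, immature neurons 5 and 25, and mature neurons 2 and 19. The median depth of a cell was 11468.5 and 3873 UMIs in nIPCs and neuroblasts, 28791 and 11563 UMIs in immature neurons, and 6123 and 2554 UMIs in mature neurons. Levels are given as CPM, the counts of a gene summed over the cells of an identity in a library and scaled to a total of 1000000 counts for those cells. Since each molecule was tagged at its 3′ end, CPM needs no division by transcript length.

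The deposited names were set beside marker genes. In both libraries the 5 markers of nIPCs and neuroblasts (Eomes, Dcx, Ccnd2, Sox11 and Calb2, 1 of the 9 genes) summed to 5844 and 3826 CPM in the cells of that name, against 146 and 229 in the immature neurons. The paper named this identity by these same 5 genes, Calb2 included. Their high sum, and a high Calb2, were thus fixed in part by the naming. Dcx, the gene of the cytoskeletal protein doublecortin of newborn neurons, was at 956 and 452 CPM in nIPCs and neuroblasts. It had 0 UMIs in fresh immature neurons and 3 UMIs in MeOH-fixed ones. The cells deposited as immature neurons thus lacked this marker of young granule neurons almost throughout. The paper's 6 markers of immature neurons were all counted in them, and summed to 1550 and 2027 CPM. This sum was 1639 and 761 CPM in nIPCs and neuroblasts, where the fresh cells had only Rbfox3 and Ncam1 of the 6. It was 1283 CPM in the MeOH-fixed mature neurons. The summed markers of mature neurons were at 1207 and 537 CPM in the immature neurons, against 898 CPM in the MeOH-fixed mature ones. Within the MeOH-fixed library they were thus lower in the immature neurons.

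The name of the fresh mature neurons went against the data. These 2 cells had 12246 UMIs, 1 UMI over the 5 counted markers of mature neurons, and none of Rbfox3 or Slc17a7, genes of a neuronal nuclear protein and of the vesicular glutamate transporter. A single transcript led each of them, namely Kcnq1ot1 with 23.5% of the UMIs in the first and Rn45s with 51.2% in the second, both named here after their values were seen. They are called the 2 cells deposited as fresh mature neurons below, and they were not compared with the immature neurons. They enter the sums over all filtered cells, the order of the fresh cells and, where said, the values with equal weight for each identity.

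Cells with markers of other neurons were also found in the lineage. Of the nIPCs and neuroblasts, 1 fresh and 4 MeOH-fixed cells had between 20 and 60 UMIs of Reln, the gene of the secreted protein reelin, with 0 UMIs of Dcx and of Prox1, a transcription factor of granule cells. The summed markers of Cajal-Retzius cells reached between 26 and 104 UMIs in them. Their part in the results was not tested. Leaving them out moved no share of Calb1 or Camk2a and no ratio between immature neurons and nIPCs and neuroblasts out of its interval. Gad1, the gene of an enzyme that makes GABA, was counted in all 3 lineage identities, while Gad2, Nxph1 and Sst were at 0 in each of them except for Gad2 in the fresh immature neurons.

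Positions are those of GRCm38 with GENCODE vM21. Calb1 (chr4:15881264-15908064, plus strand), Hpca (chr4:129111570-129122036, minus strand) and Camk2n1 (chr4:138454314-138460123, plus strand) share chromosome 4. Calb2 lies at chr8:110137502-110168210, Ncald at chr15:37366175-37792570, Calm2 at chr17:87433412-87446935, Calm3 at chr7:16915379-16924114 and Camk2b at chr11:5969644-6066362, all on the minus strand. All 9 are protein coding. The 3′ end of Hpca shares 57 bases with Tmem54 on the other strand, and 11 annotated genes overlap Ncald, 5 of them on the other strand. Calm2 and Calm3 encode the same protein and have similar coding sequences, and the authors discarded reads with more than 1 best match.

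Promoter windows from RefSeq (GRCm38.p6, from 250 bases before to 50 bases after a start) were at hand for Hpca, Calm3 and Camk2b. They are shown because these genes, 1 from each of the sensor, calmodulin and kinase groups, were higher together in immature neurons. For each gene the window nearest to the start of its first listed transcript is printed 5′ to 3′ on the gene's strand, at chr4:129121254-129121553, chr7:16923983-16924282 and chr11:6065699-6065998. Capitals mark the letters of a GC box, GGGCGG, on either strand.
Hpca: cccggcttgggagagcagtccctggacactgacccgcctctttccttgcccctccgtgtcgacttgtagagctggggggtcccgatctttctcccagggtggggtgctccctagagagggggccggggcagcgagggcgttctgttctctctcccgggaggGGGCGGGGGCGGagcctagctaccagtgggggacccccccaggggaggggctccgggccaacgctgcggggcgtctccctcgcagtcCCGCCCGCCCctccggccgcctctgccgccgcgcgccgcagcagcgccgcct
Calm3: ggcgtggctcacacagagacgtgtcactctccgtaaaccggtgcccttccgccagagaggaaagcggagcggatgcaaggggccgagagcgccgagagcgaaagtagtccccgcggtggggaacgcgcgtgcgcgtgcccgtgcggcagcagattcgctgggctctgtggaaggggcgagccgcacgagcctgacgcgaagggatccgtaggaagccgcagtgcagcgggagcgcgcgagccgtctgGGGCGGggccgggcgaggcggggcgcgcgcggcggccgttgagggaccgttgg
Camk2b: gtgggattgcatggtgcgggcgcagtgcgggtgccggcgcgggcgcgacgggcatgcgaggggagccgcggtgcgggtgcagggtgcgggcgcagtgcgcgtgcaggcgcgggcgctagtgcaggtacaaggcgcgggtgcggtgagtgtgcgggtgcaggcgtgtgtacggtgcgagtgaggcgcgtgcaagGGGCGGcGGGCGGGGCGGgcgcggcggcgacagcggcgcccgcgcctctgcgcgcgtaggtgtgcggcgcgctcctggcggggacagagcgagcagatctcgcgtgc

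The printed windows of Hpca, Calm3 and Camk2b had 74.0%, 72.0% and 77.3% G and C, against a median of 52.7% over 32851 windows of the same length. They held 4, 1 and 3 matches of GGGCGG on either strand, overlapping ones included, and 35.7% of all windows held at least 1. Of the other motifs searched on both strands, TATAAA stood in 13.6% of all windows, the neuronal E-box CAGATG in 17.2%, another E-box, CAGCTG, in 16.3%, and the cAMP response element TGACGTCA in 1.79%, and none of the 3 printed windows held any of them. Hpca had other windows, not printed, at 60.3% and 51.3% G and C, and the first of these held 1 CAGCTG. A match of letters is a description, not a site.

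The calcium buffers Calb2 and Calb1 were found in different cells along the lineage in both libraries. Calb2 was high in nIPCs and neuroblasts, where Calb1 had no UMI in any cell. The paper named that identity in part by Calb2. Calb1 was high in immature neurons, where Calb2 had 1 UMI in fresh and 2 UMIs in MeOH-fixed cells.

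Calb2 in the fresh nIPCs and neuroblasts was at 856 CPM (725 to 1003, 152 UMIs), with 14 of 16 cells counted and a range from 0 over a median of 6 to 52 UMIs per cell. In the MeOH-fixed ones it was at 645 CPM (488 to 835, 57 UMIs), with 13 of 21 cells and a range from 0 over a median of 1 to 14 UMIs. The intervals of both libraries overlapped. In immature neurons Calb2 was at 10.3 CPM fresh and 6.56 CPM MeOH-fixed, so that its level was 83.1-fold lower in the fresh library (log2 ratio -6.38, -11.69 to -3.88) and 98.2-fold lower in the MeOH-fixed library (log2 ratio -6.62, -9.70 to -4.70). Outside the lineage Calb2 had 4 UMIs in 41 fresh and 3 UMIs in 67 MeOH-fixed cells, and most of them were in oligodendrocyte precursor cells (OPCs), at 58.4 CPM fresh (3 UMIs) and 42.2 CPM MeOH-fixed (2 UMIs).

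The fresh value depended in part on 1 cell, since 34.2% of the Calb2 UMIs in the fresh nIPCs and neuroblasts came from the cell with 52. Without that cell, and without the immature neuron that held the only Calb2 UMI of its group, no Calb2 UMI was left in the immature neurons, and the log2 ratio was at most -3.83 with the limit of 3 counts over the group. Leaving out the cells with at least 2 UMIs of markers of GABA neurons or Cajal-Retzius cells left 2 fresh immature neurons with 4491 UMIs and 7 MeOH-fixed ones. All were without Calb2, so that the log2 ratio was at most -0.41 and at most -3.38 with the same limit. The cut took no account of depth, and the fresh cells left were the shallow ones, at 3520 and 971 UMIs. Nor was the GABA list particular to neurons. It summed to 1205 and 1214 CPM in astrocytes and radial glia-like cells, against 156 and 285 CPM in immature neurons.

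Calb1 had 0 UMIs in the nIPCs and neuroblasts of both libraries, which by the limit of 3 counts allows a share of up to 18.8% of such cells with a UMI in the fresh library and up to 14.3% after fixation, and a level of up to 16.8 and 33.9 CPM. In the fresh immature neurons it was at 144 CPM (78.9 to 242, 14 UMIs), and the 5 cells held 0, 5, 7, 2 and 0 UMIs at depths of 3520, 28791, 31254, 31563 and 971 UMIs. The 3 cells with Calb1 were thus the 3 deep ones.

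In the MeOH-fixed immature neurons Calb1 was at 750 CPM (655 to 853, 228 UMIs). It was counted in 22 of 25 cells, with a median of 7 and at most 28 UMIs in a cell, so that no single cell carried the level. Against the limit of 3 counts over the nIPCs and neuroblasts, Calb1 was at least 8.56-fold higher in the fresh and at least 22.1-fold higher in the MeOH-fixed immature neurons. In the cells outside the lineage, which should lack Calb1, it was at 3.95 CPM in the fresh library (1 UMI, 2.44% of 41 cells, median depth 5504 UMIs) and at 31.3 CPM in the MeOH-fixed library (8 UMIs, 7.46% of 67 cells, median depth 2648 UMIs).

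**Figure D1:**
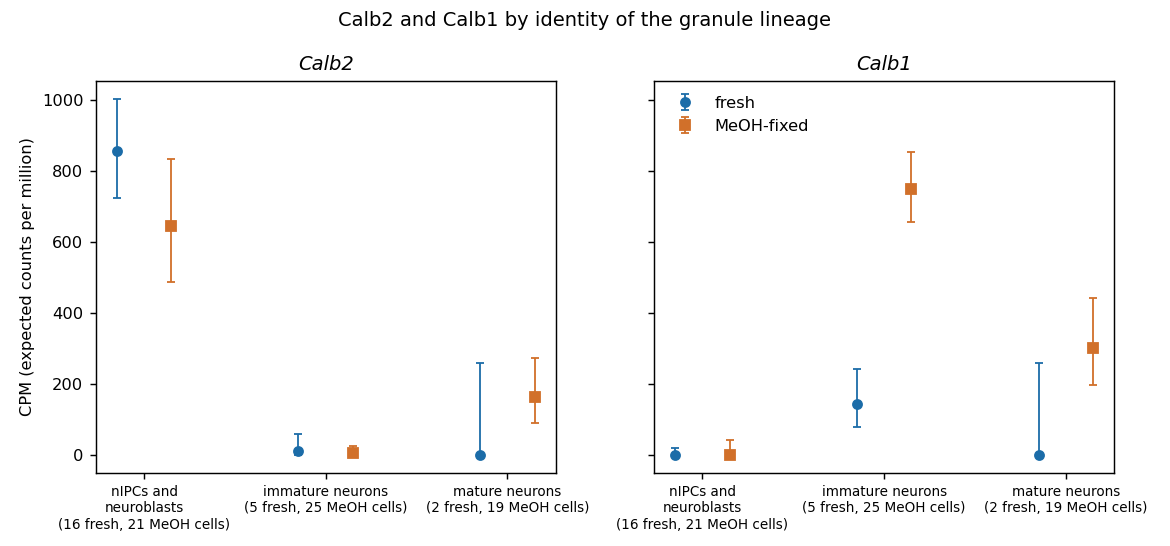
CPM of Calb2 (left) and Calb1 (right) in the 3 identities of the granule lineage, with circles for the fresh and squares for the MeOH-fixed library and bars for 95% Poisson intervals of the counts. Calb2 stood at 856 and 645 CPM in nIPCs and neuroblasts and near 0 in immature neurons, while Calb1 was at 0 in the first and at 144 and 750 CPM in the second, and the 2 cells deposited as fresh mature neurons had neither.

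As a share of both genes' UMIs, Calb1 made 0% of 152 UMIs in the fresh nIPCs and neuroblasts (Clopper-Pearson 0 to 2.40%) and 0% of 57 UMIs in the MeOH-fixed ones (0 to 6.27%). In the immature neurons it made 93.3% of 15 UMIs (68.1 to 99.8%) and 99.1% of 230 UMIs (96.9 to 99.9%). The intervals of the earlier and the later identity lay far apart in each library. Only 1 fresh and 2 MeOH-fixed cells held both genes, all 3 of them immature neurons with Dcx at 0 and with 1 UMI of Calb2 beside 5, 28 and 21 UMIs of Calb1. No cell with high counts of both was found.

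The mature neurons of the MeOH-fixed library were lower in Calb1 than the immature ones. The level was 302 CPM (198 to 443, 26 UMIs), 2.48-fold lower than in the immature neurons (log2 ratio -1.31, -1.95 to -0.72). Calb1 was counted in 9 of 19 cells, and 13 of the 26 UMIs came from 1 of them. Without the cell of each identity with the most Calb1 UMIs the log2 ratio was -2.02.

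Calb2 was at 163 CPM in the MeOH-fixed mature neurons, but all 14 UMIs were in 1 cell. That cell was the deepest of its identity with 19461 UMIs, had no Calb1, Dcx or Prox1, and held 63 UMIs of mossy cell markers, 21 of them of Cck, the gene of the neuropeptide cholecystokinin. The marker Drd2 was at 0. These markers were not particular to it, since 24 of 25 MeOH-fixed immature neurons held at least 2 of their UMIs, with at most 41 in a cell. Cck was counted in 23 of those 25 cells. Whether the cell is a mossy cell was not tested. Calretinin is known as a marker of mossy cells of the mouse hilus as well as of young granule neurons. With this cell the Calb1 share was 65.0% (48.3 to 79.4%) in the mature neurons, and without it 100%, so that the share was decided by a single cell.

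Depth set how many cells showed a UMI. After thinning each cell to 800 UMIs, Calb1 was expected in 6.95% of fresh and 43.0% of MeOH-fixed immature neurons, in place of 60% and 88% as counted, and Calb2 in 43.0% of fresh and 38.6% of MeOH-fixed nIPCs and neuroblasts, in place of 87.5% and 61.9%. The difference between the libraries in the share of cells with Calb1 was therefore wider, and that in the share with Calb2 narrower, at equal depth.

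A second view ordered the cells deposited under the 3 lineage names by a gene score. The score is not independent of those names, since its genes include markers by which the paper named the identities. Eomes, Dcx, Sox11 and Ccnd2 were among the early genes, and Rbfox3, Dsp, Gda, Rasgrp1 and Smad3 among the late ones. Within each library the cells were ranked by the log2 ratio of 17 late to 12 early genes of the lineage, none of them among the 9 genes, and cut into 4 parts of near equal size. In the MeOH-fixed library, Calb2 was at 698, 196, 5.95 and 0 CPM from the first to the last part, and Calb1 at 0, 366, 745 and 692 CPM. The first part held 17 nIPCs and neuroblasts, and the second held cells of all 3 names. Of the Calb2 UMIs in the second part, 14 came from 1 mature neuron, and 1 cell of that part held both genes, with 28 UMIs of Calb1 and 1 UMI of Calb2.

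In the fresh library the last part was the same as the 5 immature neurons, and Calb2 was at 653, 473, 1285 and 10.3 CPM and Calb1 at 0, 0, 0 and 144 CPM. The value of 1285 CPM held the cell with 52 UMIs. These parts are ranges of a score and not cell types.

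**Figure D2:**
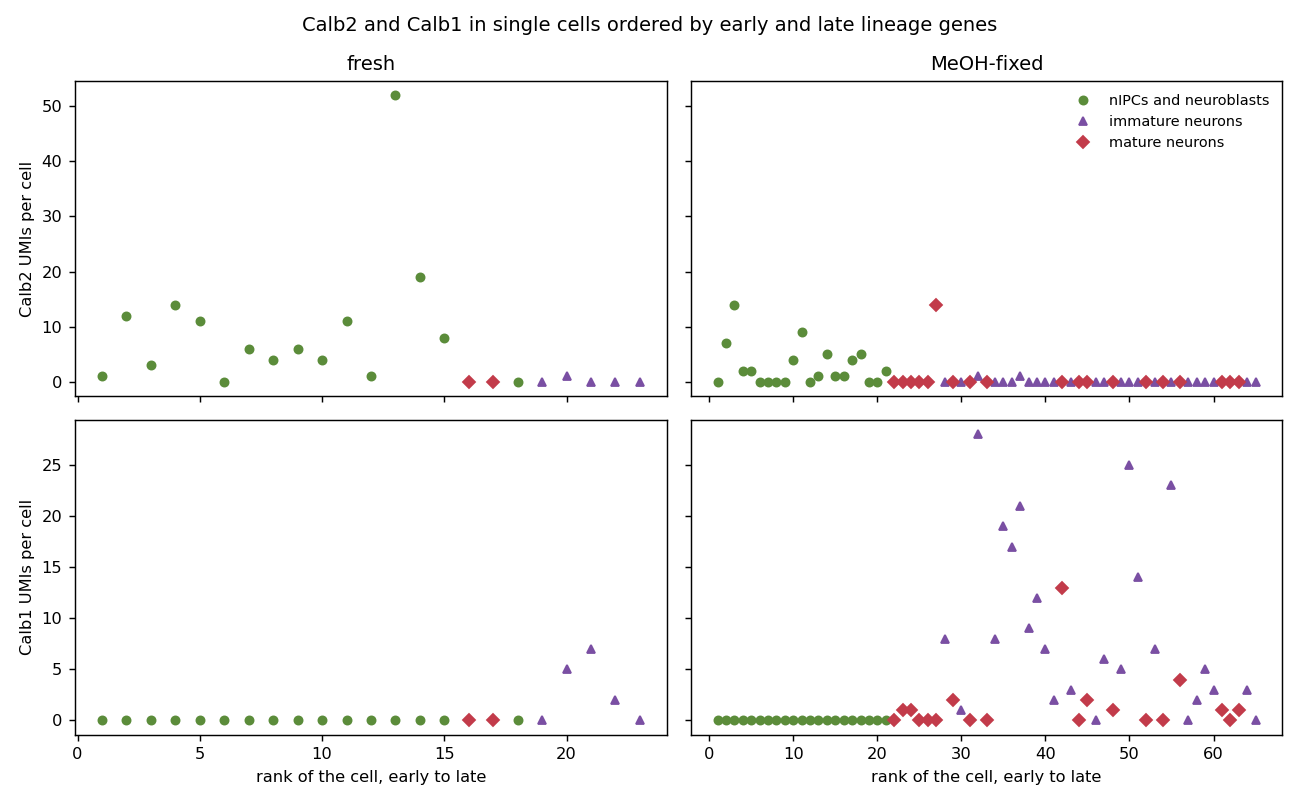
UMIs per cell of Calb2 (top) and Calb1 (bottom) against the rank of each lineage cell from early to late, in the fresh (left) and the MeOH-fixed library (right), with a mark for each deposited identity. Calb2 counts up to 52 and 14 UMIs stood among the early cells, and Calb1 counts up to 7 and 28 UMIs among the late ones, with the single mature neuron at 14 Calb2 UMIs as the exception.

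Hpca and Ncald encode hippocalcin and neurocalcin delta, sensors of the neuronal calcium sensor family that move to membranes when they bind calcium. Both were almost absent from nIPCs and neuroblasts. Hpca was at 22.5 CPM (4 UMIs) fresh and 45.2 CPM (4 UMIs) MeOH-fixed there, close to its 35.6 and 50.8 CPM outside the lineage, and at 620 CPM (473 to 798) and 1305 CPM (1179 to 1440) in immature neurons. The ratio was 27.6-fold (log2 4.79, 3.36 to 6.71) in the fresh and 28.9-fold (log2 4.85, 3.48 to 6.73) in the MeOH-fixed library, and the lineage step was thus of like size in both while the level was not.

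The 3 deep fresh immature neurons held 9, 33 and 18 UMIs of Hpca, and the 2 shallow ones none. In the MeOH-fixed library 24 of 25 immature neurons held between 3 and 69 UMIs. Hpca in the MeOH-fixed mature neurons was at 384 CPM (264 to 539), 3.40-fold lower than in the immature ones, with 8 of 19 cells counted.

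Ncald stood out among the 9 genes by its level in OPCs. In the fresh library it was at 5.61 CPM (1 UMI) in nIPCs and neuroblasts, 1076 CPM (879 to 1304) in immature neurons and 604 CPM (410 to 857) in OPCs, where all 5 cells had it. In the MeOH-fixed library the same identities were at 56.5, 934 (829 to 1049) and 549 CPM (359 to 804), and 6 of 10 OPCs had it. In astrocytes, microglia and endothelial cells it was at most at 24.5 CPM, and no other gene of the 9 was as high in OPCs.

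The log2 ratio of Ncald between immature neurons and nIPCs and neuroblasts was 7.58 (5.07 to 12.90) in the fresh and 4.05 (2.81 to 5.68) in the MeOH-fixed library. The fresh ratio rests on 1 UMI in the earlier cells. Every immature neuron of both libraries held Ncald, which was true of Calm2 and Camk2n1 as well. In the MeOH-fixed mature neurons it was at 325 CPM (216 to 470), 2.87-fold lower than in the immature ones.

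Calm2 and Calm3 encode calmodulin, and both were counted in every identity with more than 2 cells. Calm2 was the more abundant. It was at 826 CPM (698 to 971) in fresh nIPCs and neuroblasts and 1436 CPM (1197 to 1709) in MeOH-fixed ones, and at 2192 CPM (1906 to 2508) and 2845 CPM (2658 to 3042) in immature neurons. These steps were the smallest of the lineage among the 9 genes, with 2.65-fold (log2 1.41, 1.10 to 1.72) and 1.98-fold (log2 0.99, 0.72 to 1.27).

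Calm2 was also at 775 CPM (543 to 1072) in fresh and 950 CPM (520 to 1595) in MeOH-fixed microglia, a level that overlapped that of nIPCs and neuroblasts in the same library. In astrocytes and radial glia-like cells (RGLs) it was lowest, at 90.1 and 184 CPM. In the MeOH-fixed mature neurons it was at 896 CPM (707 to 1119), 3.18-fold lower than in the immature ones.

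Calm3 was at 242 CPM (175 to 325) and 181 CPM (103 to 294) in nIPCs and neuroblasts, and at 785 CPM (619 to 983) and 996 CPM (887 to 1115) in immature neurons. The log2 ratio was 1.70 (1.14 to 2.28) in the fresh and 2.46 (1.74 to 3.29) in the MeOH-fixed library. The fresh direction turned to -0.50 in the 6 nIPCs and neuroblasts and 2 immature neurons that were left without cells with markers of GABA neurons or Cajal-Retzius cells. Those 2 immature neurons were the shallow ones, at 3520 and 971 UMIs. In the MeOH-fixed mature neurons Calm3 was at 244 CPM (151 to 373), 4.08-fold lower than in the immature ones.

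Of the UMIs of both calmodulin genes, Calm2 made 77.4% (70.8 to 83.1%) in the fresh and 88.8% (82.5 to 93.5%) in the MeOH-fixed nIPCs and neuroblasts. In immature neurons it made 73.5% (68.0 to 78.5%) and 74.0% (71.4 to 76.5%), and in the MeOH-fixed mature neurons 78.6% (69.1 to 86.2%). The shares of the immature neurons were the closest between the libraries.

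**Figure D3:**
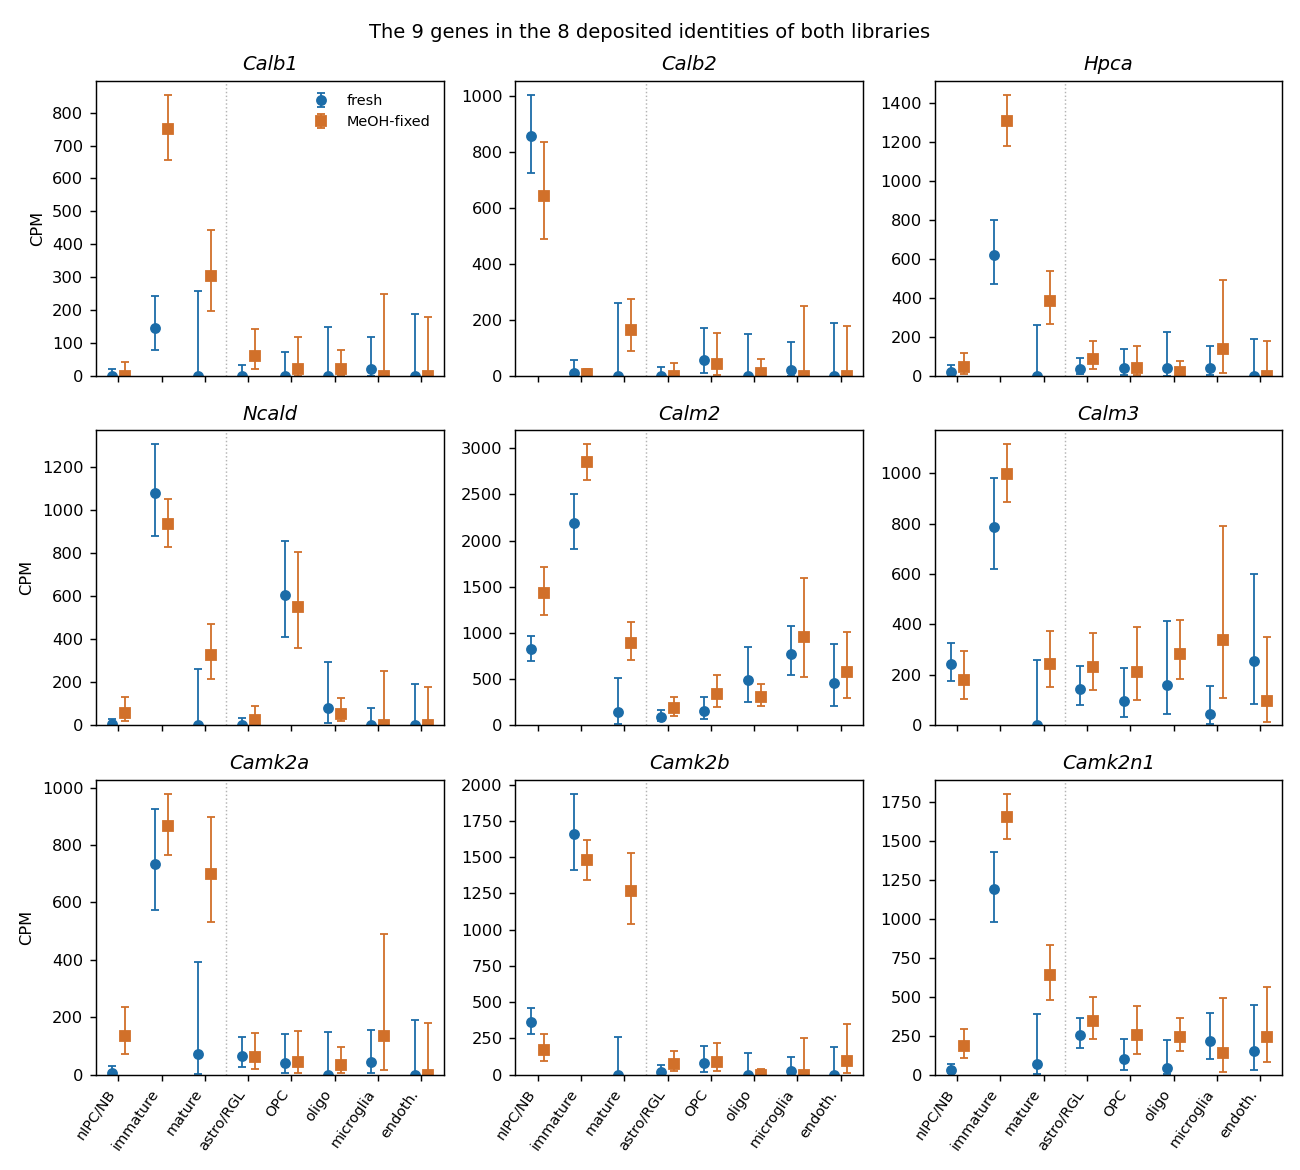
CPM of the 9 genes in the 8 deposited identities, with circles for the fresh and squares for the MeOH-fixed library, bars for 95% Poisson intervals and a dotted line between the granule lineage and the other identities. All genes but Calb2 were highest in immature neurons in both libraries, Ncald had a second high level in OPCs at 604 and 549 CPM, and Calm2 was at 775 and 950 CPM in microglia.

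Camk2a and Camk2b encode the alpha and beta subunits of CaMKII, and the beta subunit is known to bind actin and to come earlier in development. In the fresh nIPCs and neuroblasts Camk2a had 1 UMI (5.61 CPM, 0.142 to 31.3), while Camk2b had 64 UMIs in 13 of 16 cells (360 CPM, 277 to 459). In the MeOH-fixed ones Camk2a had 12 UMIs in 8 of 21 cells (136 CPM, 70.1 to 237) and Camk2b 15 UMIs in 9 of 21 cells (170 CPM, 94.9 to 280). The fresh cells thus had Camk2b almost alone, and the MeOH-fixed cells had both at overlapping levels.

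In immature neurons both subunits were high. Camk2a was at 734 CPM (573 to 926) and 868 CPM (766 to 979), and Camk2b at 1659 CPM (1412 to 1937) and 1478 CPM (1344 to 1621). The log2 ratio over nIPCs and neuroblasts was 7.03 (4.51 to 12.35) and 2.68 (1.85 to 3.65) for Camk2a, and 2.21 (1.78 to 2.65) and 3.12 (2.39 to 3.97) for Camk2b, in the fresh and the MeOH-fixed library.

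The subunits were the only genes of the 9 for which the interval of the ratio between mature and immature neurons of the MeOH-fixed library included 0. Camk2a was at 698 CPM (532 to 898) in the mature ones, with a log2 ratio of -0.31 (-0.74 to 0.09), and 15 of its 60 UMIs were in 1 cell. Camk2b was at 1268 CPM (1041 to 1530) in all 19 cells, with a log2 ratio of -0.22 (-0.54 to 0.08). Over the other genes, leaving aside Calb2, the log2 ratio ran from -1.31 to -2.03.

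As a share of both subunits' UMIs, Camk2a made 1.54% of 65 UMIs in the fresh nIPCs and neuroblasts (0.039 to 8.28%) and 44.4% of 27 UMIs in the MeOH-fixed ones (25.5 to 64.7%), and these intervals did not overlap. In the immature neurons the shares were 30.7% (24.9 to 37.1%) and 37.0% (33.5 to 40.7%), and in the MeOH-fixed mature neurons 35.5% (28.3 to 43.2%). In the cells outside the lineage, which have few counts of either, Camk2a made 61.1% of 18 UMIs (35.7 to 82.7%) and 50% of 24 UMIs (29.1 to 70.9%).

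The barcodes that failed the filter, which did not meet the limits on transcripts, genes or spike-ins, had more Camk2a than Camk2b in the MeOH-fixed library, where Camk2a made 87.5% of 80 UMIs (78.2 to 93.8%). In the fresh library it made 58.3% of 36 UMIs (40.8 to 74.5%), an interval that included 50%. Whether RNA of this kind is part of the Camk2a UMIs in MeOH-fixed nIPCs and neuroblasts was not tested.

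**Figure D4:**
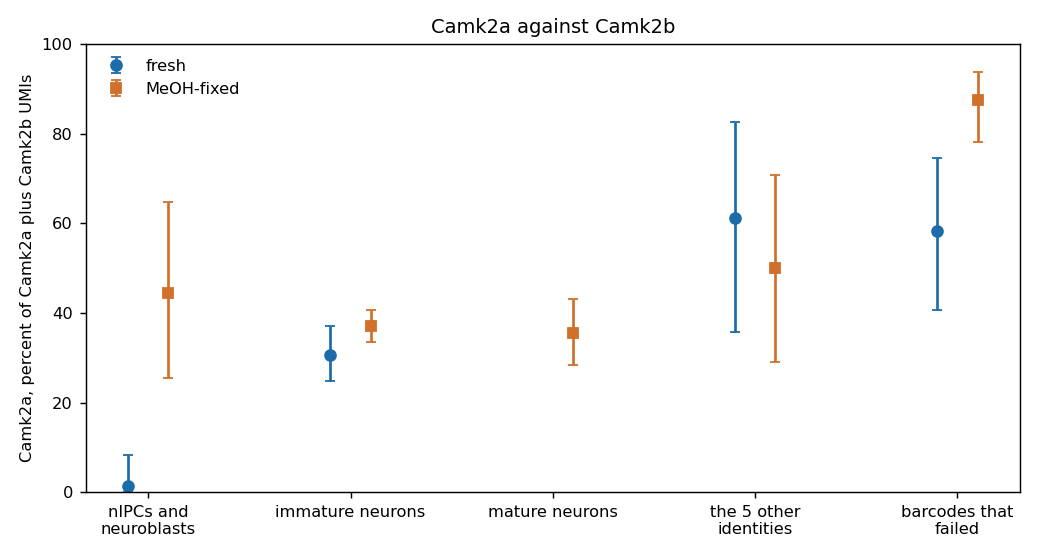
Percentage of Camk2a in the UMIs of Camk2a plus Camk2b for the lineage identities, the 5 other identities together and the barcodes that failed the filter, with circles for the fresh and squares for the MeOH-fixed library and bars for 95% Clopper-Pearson intervals. The fresh barcode above the upper limit on transcripts is left out of the failed ones. The libraries stood at 1.54% and 44.4% in nIPCs and neuroblasts and at 30.7% and 37.0% in immature neurons, and the failed MeOH-fixed barcodes at 87.5%.

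Camk2n1 encodes a small protein that binds CaMKII and inhibits it. It was at 28.1 CPM (9.12 to 65.5) in fresh nIPCs and neuroblasts and 181 CPM (103 to 294) in MeOH-fixed ones, and at 1190 CPM (982 to 1428) and 1653 CPM (1512 to 1804) in immature neurons. The log2 ratio was 5.41 (4.14 to 7.06) and 3.19 (2.48 to 4.01). Every immature neuron held it, with 1 to 39 UMIs in the 5 fresh cells and 2 to 72 UMIs in the 25 MeOH-fixed cells.

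Unlike the subunits it inhibits, Camk2n1 was 2.59-fold lower in the mature than in the immature neurons of the MeOH-fixed library, at 639 CPM (482 to 832). It was also the member with the highest level in astrocytes and RGLs, at 252 CPM (168 to 365) fresh and 344 CPM (228 to 497) MeOH-fixed, where Camk2a and Camk2b were at or under 73.7 CPM.

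For all genes, a call was a CPM at least 2-fold apart, among genes with at least 20 UMIs over both groups. Between immature neurons and nIPCs and neuroblasts, 24.8% of 2810 genes were called higher and 22.5% lower in the fresh library, and 31.9% of 4061 genes were called higher and 14.0% lower in the MeOH-fixed library. Of the 9 genes, 8 had enough UMIs in the fresh library, 7 of them higher and Calb2 lower, and all 9 in the MeOH-fixed library, with 7 higher, Calb2 lower and Calm2 just under the limit. This contrast was used to choose the genes, and nothing is read from these counts. Calm2 at 1.98-fold was the gene just outside the limit, and Calm2 at 2.65-fold in the fresh library the nearest inside it.

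Between mature and immature neurons of the MeOH-fixed library, 13.2% of 4053 genes were called higher and 26.9% lower, with a median log2 ratio of -0.31 over all of them. Of the 8 genes with enough UMIs none was called higher and 6 were called lower, namely Calb1, Hpca, Ncald, Calm2, Calm3 and Camk2n1, with a median log2 ratio of -1.45 over the 8. These mature neurons had a median of 17.0% mitochondrial counts, against 6.26% in the immature ones, and a median depth of 2554 against 11563 UMIs. Markers of other cells moved with the identity as well. The 6 markers of astrocytes and RGLs summed to 292 CPM (25 UMIs, none at 0) in the mature and 66.3 CPM (20 UMIs, S100b at 0) in the immature neurons, and the 4 markers of oligodendrocytes to 502 and 252 CPM (43 and 76 UMIs, none at 0). The part of these differences in the lower levels was not tested. A limit of less than 25% mitochondrial counts per cell left 14 of 19 mature and 24 of 25 immature neurons. With it the log2 ratios of the 6 genes lay between -2.01 and -1.21. This limit set no cut on depth or on markers of other cells.

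The condition comparison asks whether fixed cells show the same transcripts as fresh ones. Over all filtered cells, 11.0% of 8804 genes were called higher and 8.87% lower in the MeOH-fixed library. Of the 9 genes, Calb1, Hpca, Camk2a and Camk2n1 were called higher and Calb2 lower. The contrast was among those that chose the genes, and the counts are a description.

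These totals mix cells in different shares. Immature neurons made 18% of fresh and 41.4% of MeOH-fixed UMIs, and nIPCs and neuroblasts 32.9% and 12.1%. With equal weight for each of the 8 identities, the log2 ratio of Calb2 was -0.13 in place of -1.49, that of Ncald 0.14 in place of 0.90, that of Calb1 2.80 in place of 3.69 and that of Hpca 1.33 in place of 2.17. Camk2a was at 1.05 in place of 1.61, and Camk2n1 at 0.85 in place of 1.50, under 2-fold. These values give the 2 cells deposited as fresh mature neurons the weight of an identity. Over the other 7 identities, the log2 ratio was 2.36 for Calb1, -0.43 for Calb2, 1.03 for Hpca, -0.13 for Ncald, 0.53 for Camk2a and 0.62 for Camk2n1, so that only Calb1 and Hpca of the 9 genes were 2-fold higher or lower.

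Within immature neurons, 13.9% of 4029 genes were called higher and 7.12% lower in the MeOH-fixed library. Among the 8 genes with enough UMIs, Calb1 was 5.19-fold higher (log2 ratio 2.38, 1.60 to 3.27) and Hpca 2.10-fold higher (log2 ratio 1.07, 0.68 to 1.49), and none was called lower. The other 6 lay between -0.20 (Ncald, -0.53 to 0.13) and 0.47 (Camk2n1, 0.18 to 0.78). The fresh side of this comparison is 5 cells, of which 3 gave nearly all UMIs.

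A fresh barcode above the upper limit of 35000 transcripts bears on Calb1. It had 44514 UMIs, with 25 UMIs of Calb1 (553 CPM, 357 to 814), none of Calb2 or Dcx, 37 of Hpca, 3 of Prox1 and 28 of Slc17a7. Added to the fresh cells, it moved the log2 ratio of Calb1 over all filtered cells from 3.69 to 2.39 and that of Hpca from 2.17 to 1.70. Both values thus depended on whether this single barcode was counted.

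Within nIPCs and neuroblasts, 12.1% of 2582 genes were called higher and 13.1% lower in the MeOH-fixed library. Only 5 of the 9 genes had enough UMIs, and of these Camk2n1 was called higher (log2 ratio 2.69, 1.17 to 4.49) and Camk2b lower (log2 ratio -1.09, -2.00 to -0.26). Calb2 did not stand apart, with a log2 ratio of -0.41 (-0.87 to 0.04), and Calm2 was 1.74-fold higher (log2 ratio 0.80, 0.44 to 1.15). Camk2a, with 1 against 12 UMIs, had a log2 ratio of 4.59 (1.84 to 10.01) and was under the limit of 20 UMIs.

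**Figure D5:**
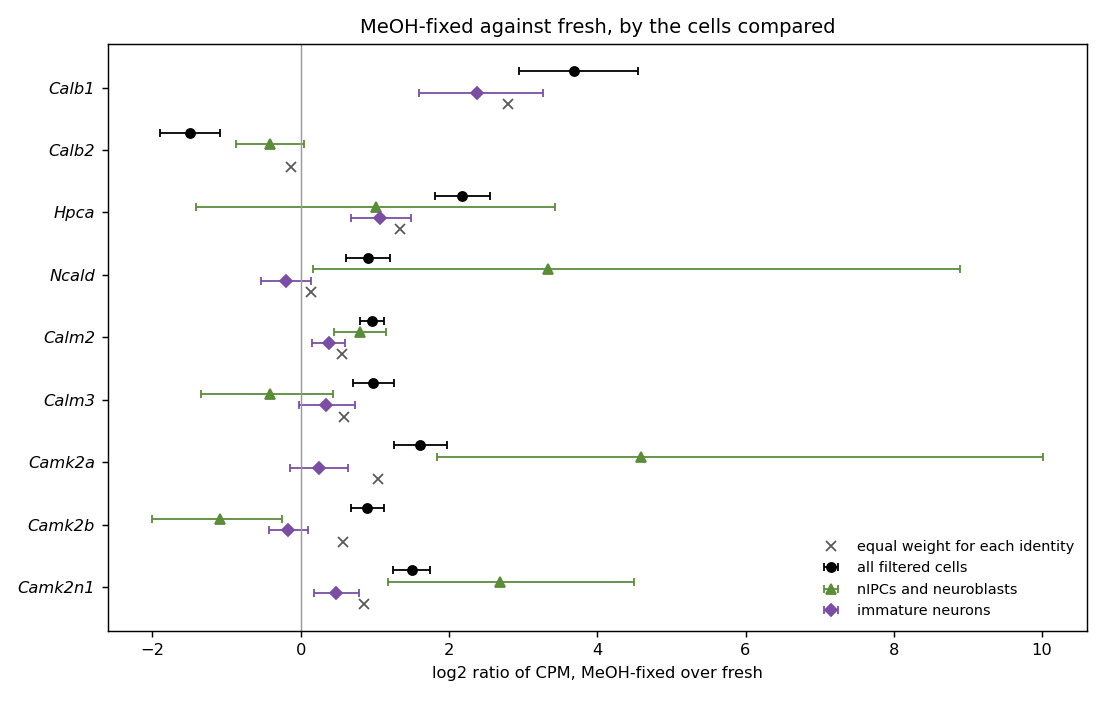
Log2 ratio of CPM, MeOH-fixed over fresh, for each of the 9 genes, over all filtered cells (circles), in nIPCs and neuroblasts (triangles) and in immature neurons (diamonds) with 95% counting intervals, and with equal weight for each identity (crosses). Calb1 stood at 3.69 over all cells and 2.38 in immature neurons, while Calb2 moved from -1.49 over all cells to -0.13 at equal weight.

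Lists of related genes of the same pathways were set on the same contrast between immature neurons and nIPCs and neuroblasts. These lists were drawn up with earlier results of these data known. Their counts are thus a description, and nothing is read from them about the 9 genes. In all lists but the last, most genes with enough UMIs were called higher in immature neurons. Of 21 further EF-hand genes, 5 had enough UMIs in the fresh and 9 in the MeOH-fixed library, and 4 and 8 of them were called higher, with median log2 ratios of 1.61 and 2.88, against -0.02 and 0.32 over all genes tested, of which 24.8% and 31.9% were called higher. Pvalb, the buffer parvalbumin, was called lower in the fresh library, from 192 to 10.3 CPM (log2 ratio -4.22), and is named here as the 1 gene of this list called lower. Kcnip2, a calcium-binding subunit of potassium channels, was at 16.8 and 475 CPM fresh and at 67.8 and 341 CPM MeOH-fixed. Hpcal4 and Vsnl1, relatives of Hpca, were higher as well, Hpcal4 by log2 6.16 and 3.71.

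Of 12 other CaM kinase genes and partners, 6 and 7 had enough UMIs, and 5 and 6 were called higher, with median log2 ratios of 1.98 and 1.72. Camk2n2, a relative of Camk2n1, was the 1 gene called lower, in the fresh library (107 to 51.5 CPM, log2 ratio -1.05), and is likewise named after its value was seen. Camkk1, a kinase that activates other CaM kinases, had log2 ratios of 4.38 and 4.39. Camk2g, the gamma subunit of CaMKII, was at 112 and 340 CPM fresh and at 90.4 and 233 CPM MeOH-fixed, Camkv was higher in both, and Dclk1 had log2 ratios of 1.51 and 1.72.

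Calcineurin is the calcium-dependent phosphatase that opposes CaMKII at many targets. Of 9 genes of calcineurin and its regulators, 3 and 4 had enough UMIs, and all of these were called higher. Ppp3ca, a catalytic subunit, was at 275 and 3801 CPM in the fresh and at 181 and 3254 CPM in the MeOH-fixed library. Ppp3r1, the regulatory subunit, had log2 ratios of 3.03 and 3.07, and Ppp3cb, the other catalytic subunit of brain, 1.50 and 1.16.

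The last list, of proteins that store calmodulin and others set with them, moved both ways. Not every gene on it encodes a membrane store of calmodulin, and nothing is read from the list about such stores. Of 9 genes, 8 had enough UMIs in each library, 3 were called higher and 3 lower. Gap43, Marcks and Marcksl1 were the lower ones in both, and only Nrgn and Nell2 were called higher in both. Nrgn, the gene of neurogranin of mature dendrites, was at 174 and 7804 CPM fresh and at 531 and 8222 CPM MeOH-fixed. Marcks was at 1108 and 268 CPM and at 1278 and 391 CPM, and Marcksl1 had log2 ratios of -2.41 and -1.38. Nell2, a secreted protein on this list, had log2 ratios of 2.53 and 4.34.

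The pattern of each buffer was compared with that of 1021 genes over the 14 groups of at least 5 cells of an identity in a library, which share plates, depth and cell names. Calb1 was most like Cck (Pearson r = 0.91 of log2(CPM + 10)), Slc17a7 (0.90), Rapgefl1 (0.87), Cpne6 (0.86) and Camk2n1 (0.85). Calb2 was most like Sox11 (0.88), Dcx (0.86), Tubb3 (0.84), Fxyd6 (0.84) and Cd24a (0.79). Among the 9 genes themselves, Hpca and Camk2a had an r of 0.96, with each among the 5 genes most like the other.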

How the data were processed

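SORT-seq libraries of dentate gyrus cells were made from 1 fresh and 1 MeOH-fixed plate of 384 barcodes, 8 of them for empty wells. The authors used STAR and GRCm38 for mapping, discarded multi-mapping reads and deposited expected counts, which are UMI counts corrected for collisions among 4096 possible UMIs. Their filter (800 to 35000 transcripts, more than 500 genes and spike-ins, and a ratio of transcripts to genes above 1.2), the cell identities and the percentage of mitochondrial counts were used as deposited. Methods name R 4.2.0 and Seurat 4.1.0. How strand was counted is not given in the sources used here.

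Inverting the correction gave whole UMIs (largest distance 3.64e-12). CPM used expected counts, and intervals used UMIs (exact Poisson, Clopper-Pearson and binomial, at 95%). Genes at 0 in a group were set against a limit of 3 counts over the group. Cells were thinned to 800 UMIs in expectation, and calls took 2-fold and 20 UMIs. With 1 library per condition no test was made.

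The 9 genes and all lists were chosen with earlier results of these data known. Pathway genes were named when they had at least 100 UMIs in the lineage and were called the same way in both libraries. A gene that meets this rule is not reported here. The genes most like Calb1 and Calb2 were the 5 with the highest r, among genes with at least 200 UMIs over both libraries, in groups of at least 5 cells. Alternatives changed the weights of cells, the deepest cells, limits on mitochondrial share, depth and UMIs, the unit and the total, and left out cells with other neurons' markers. Those without Reln-rich cells, with the deep fresh barcode, with equal weight but no mature neurons, and all for mature over immature neurons were added after seeing the data. The script that makes the calls was checked on simulated counts. The versions were scipy 1.17.1, pandas 2.3.3, numpy 2.4.6, matplotlib 3.10.9 and Python 3.11.15.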

Additional observations from a re-analysis of the deposited data

Results flagged for a closer look

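Barcodes outside the filtered cells held counts of these genes. The failed fresh barcodes here leave out the barcode above the upper limit on transcripts, which is given on its own. In 319 fresh barcodes that failed the filter, Camk2n1 was at 446 CPM (323 to 601, 43 UMIs in 35 barcodes), above its 311 CPM in the filtered fresh cells. In 252 failed MeOH-fixed barcodes, Camk2a was at 832 CPM (648 to 1050, 70 UMIs in 33 barcodes), above its 474 CPM in the filtered MeOH-fixed cells, while Camk2b was at 119 CPM there, below its 798 CPM in the filtered cells.

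The share of Camk2a in the UMIs of both subunits was 58.3% in the failed fresh barcodes (40.8 to 74.5%, 36 UMIs) and 26.7% in the filtered fresh cells (21.9 to 31.9%). It was 87.5% in the failed MeOH-fixed barcodes (78.2 to 93.8%, 80 UMIs) and 37.3% in the filtered MeOH-fixed cells (34.2 to 40.5%). Without the 3 MeOH-fixed barcodes richest in Camk2a, which held 28 of its UMIs, the share was 80.8% (67.5 to 90.4%). Without the 3 fresh ones richest in it, the share was 50% of 30 UMIs (31.3 to 68.7%), which overlapped the interval of the filtered fresh cells.

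The fresh barcode above the upper limit on transcripts held Calb1 at 553 CPM (357 to 814), against 144 CPM in the 5 fresh immature neurons, and its Camk2a share was 36.0% (26.1 to 46.8%). Control wells without a cell were not used here, so that the level of a well with no cell is not known.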

How the results depend on the processing

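Of 408 ratios under an alternative, 343 stayed within the reported interval or, where a group at 0 made a value a bound, moved by less than 1 on the log2 scale. Another 64 moved further, 6 of them with a change of sign from a ratio under 2-fold, and 1 ratio above 2-fold turned: Calm3 in fresh immature neurons over nIPCs and neuroblasts was at -0.50 without cells with markers of GABA neurons or Cajal-Retzius cells. That alternative, with a cut at 2 UMIs of these markers per cell, left 6 of 16 fresh nIPCs and neuroblasts. Of the immature neurons it left 2 of 5 fresh ones, which were the shallow ones, and 7 of 25 MeOH-fixed ones. It left no Calb2 UMI in immature neurons, with log2 ratios of at most -0.41 (fresh) and at most -3.38 (MeOH-fixed), and gave Calb1 shares of 100% in immature and 41.7% in mature MeOH-fixed neurons, and a Camk2a share of 40% in fresh immature neurons. The mean of each cell's share was 90.0% for Calb1 in mature MeOH-fixed neurons and 43.0% for Camk2a in fresh immature neurons. Without the cell with the most UMIs, the Calb1 share in mature MeOH-fixed neurons was 100% and the fresh log2 ratio of Calb2 was at most -3.83, again with no UMI left. With less than 25% mitochondrial counts the Camk2a share in mature MeOH-fixed neurons was 26.2%. Of 75 shares, 68 stayed within their interval. For MeOH-fixed over fresh with at least 50 UMIs, 5.43% of genes were called lower over all cells, 6.14% higher and 7.71% lower in nIPCs and neuroblasts, and 8.53% higher and 3.76% lower in immature neurons. With at least 10 UMIs, 11.2% were called lower there. Apart from what the cells left show, the cause was not tested. No paired analysis was possible because no result comes from a test. With 15 results or alternatives no value could be had, among them the Calb1 share of the 2 cells deposited as fresh mature neurons, which had neither gene.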

Other observations

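The lists of further genes of these pathways were also compared between the libraries. Over all filtered cells, 6 of 18 further EF-hand genes with enough UMIs were called higher and 3 lower in the MeOH-fixed library, with a median log2 ratio of 0.70, against 0.10 over all genes tested, of which 11.0% were called higher and 8.87% lower. Vsnl1 and Kcnip2 were among those higher, and Pvalb, the buffer of a class of inhibitory neurons, was among those lower. Of the CaM kinase genes 1 of 10 was called higher (Camk4) and 1 lower (Camk1), and of the calcineurin genes 4 of 7 were called higher and none lower, with a median of 1.10. Within immature neurons the medians were -0.44 for the EF-hand genes, -0.55 for the CaM kinases and 0.51 for calcineurin. The list with the calmodulin-storing proteins had a median of 0.28. Of these lists, 1 of 11, 0 of 7, 2 of 5 and 0 of 7 genes were called higher there, and none lower, against 13.9% higher, 7.12% lower and a median of 0.11 over all genes tested.

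Between mature and immature MeOH-fixed neurons, the medians were -0.39 for the EF-hand genes, -0.15 for the CaM kinases and -0.93 for calcineurin. The list with the calmodulin-storing proteins had a median of -0.90, against -0.31 over all genes. Nrgn, at 8222 CPM in immature neurons, was at 2680 CPM in the mature ones, and Ppp3ca at 3254 and 1711 CPM. Dclk1, a kinase of the doublecortin family, was at 670 and 1118 CPM, and Kcnip2 at 341 and 384 CPM.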
